A study of Mus musculus with 4 samples.

Results

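Splicing was followed in 4 poly(A) RNA libraries of the mouse neuroblastoma line N2A, which differ by label in the short hairpin RNAs the cells had received. The control library came from cells given shControl, the Ptbp1 knockdown from cells given shptbp1, the Ptbp2 knockdown from cells given shptbp2, and the double knockdown from cells given both. All 4 groups were transfected with Lipofectamine for 5 h and cultured for 3 days, and each group is 1 library, which leaves replicate spread unknown and allows no test between groups. The exons described here are those that were included less in the double knockdown than in control: 406 of 99602 measured exons, which is 0.408% of them. The counterpart in the other direction, exons included more by the same amount, numbers 373 (0.374%).

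The members were chosen by a rule on their own reads. SpliceTrap lists trios of exons, each with reads across 3 junctions: from the upstream to the middle exon, from the middle to the downstream exon, and from the upstream directly to the downstream exon, which skips the middle one. Inclusion is the mean of both inclusion junctions divided by that mean plus the skipping junction, in percent. A middle exon of over 27 nucleotides was measured when it had 20 or more such reads in each library, and it was a member when the double knockdown stood at least 15 percentage points below control. The difference between control and double knockdown is therefore a description of how the exons were picked, not a finding. Members were split by whether a single knockdown alone also stood at least 15 points below control. Intervals in parentheses are 95% Wilson intervals, which cover the counting error of the reads only.

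PTBP1 and PTBP2, the polypyrimidine tract-binding proteins, are related RNA-binding proteins that attach to stretches rich in C and U in pre-mRNA. They are best known as repressors: exons flanked by their binding sites are skipped while the protein is present, and are included once it is lost. Most cells make PTBP1, while developing neurons replace it with PTBP2, and PTBP1 itself keeps PTBP2 low by making one of its exons skip. They can also promote the inclusion of an exon, and such an exon is included less once the protein is lost. The members here go in that direction, and the rule that picked them takes no account of cause.

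The targeted genes were checked by reads on the fixed exon list, given as CPM, the reads on a gene scaled to a library of 1 M reads. Ptbp1 stood at 638 CPM in control, 184 with Ptbp1 lowered (28.8% of control), 726 with Ptbp2 lowered and 142 with both lowered (22.2%). Ptbp2 stood at 137 CPM in control, 264 with Ptbp1 lowered, 36.8 with Ptbp2 lowered (26.8%) and 57.5 with both lowered (41.9%). Ptbp1 was thus low and Ptbp2 high in the Ptbp1 knockdown, and the double knockdown kept more Ptbp2 than the Ptbp2 knockdown did. Summed over all cassette trios, so that a read counts once for each trio it falls in, the libraries held between 116 M and 149 M junction reads. Of 10 markers of sympathetic-type neuroblastoma, 8 were found and 7 of these reached 1 CPM in every library, as did 5 of 5 neuronal markers. No marker of astrocytes, of microglia and blood or of fibroblasts reached 1 CPM in all 4 libraries. Pecam1 of endothelium did.

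The sequences of 12 members are shown to let the exons of the 4 classes be compared. All are coding exons among those named below, with sizes from 33 to 119 nucleotides. They were not chosen by the size of the difference alone. The exon of Tmem63b, with the largest difference of all members, is among them, but longer exons such as that of Eml4 were left out. Of the 12, 10 have sizes that are multiples of 3, so that skipping keeps the reading frame. The exons of Mpzl1 and Dpp7 are shown as examples that do not. The letters are those of GENCODE vM21 transcripts whose intron and exon sizes match the trio, the coordinates are those of the deposited tables (mm9, 1-based), and each sequence runs 5′ to 3′ on the transcript strand. Capitals mark TCTT, TTCT and CTCTCT, short C and U motifs of the kind PTB proteins bind.
Flnc, chr6:29402799-29402897, plus strand: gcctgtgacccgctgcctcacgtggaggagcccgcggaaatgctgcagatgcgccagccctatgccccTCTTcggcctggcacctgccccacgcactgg
Arhgap39, chr15:76560794-76560886, minus strand: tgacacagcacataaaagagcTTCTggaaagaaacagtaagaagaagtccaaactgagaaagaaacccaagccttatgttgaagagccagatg
Immt, chr6:71802760-71802861, plus strand: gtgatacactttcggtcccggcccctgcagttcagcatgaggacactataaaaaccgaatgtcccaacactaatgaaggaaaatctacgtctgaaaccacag
Mpzl1, chr1:167531881-167531986, minus strand: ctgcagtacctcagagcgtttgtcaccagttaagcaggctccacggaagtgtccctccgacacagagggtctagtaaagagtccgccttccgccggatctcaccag
Golim4, chr3:75706323-75706406, minus strand: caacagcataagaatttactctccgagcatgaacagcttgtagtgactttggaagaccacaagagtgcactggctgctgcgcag
Sh3pxd2a, chr19:47357511-47357594, minus strand: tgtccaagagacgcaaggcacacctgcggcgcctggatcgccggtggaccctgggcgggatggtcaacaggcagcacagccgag
Tia1, chr6:86369095-86369127, plus strand: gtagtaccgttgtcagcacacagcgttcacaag
Dpp7, chr2:25209128-25209246, minus strand: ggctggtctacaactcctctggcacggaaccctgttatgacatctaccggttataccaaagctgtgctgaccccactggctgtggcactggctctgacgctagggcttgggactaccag
Epn1, chr7:5044914-5044988, plus strand: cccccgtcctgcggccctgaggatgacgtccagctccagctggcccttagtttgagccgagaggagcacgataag
Tmem63b, chr17:45815912-45815950, minus strand: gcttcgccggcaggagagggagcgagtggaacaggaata
Kif1b, chr4:148635269-148635310, minus strand: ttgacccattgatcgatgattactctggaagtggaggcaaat
Arfgef2, chr2:166668185-166668253, plus strand: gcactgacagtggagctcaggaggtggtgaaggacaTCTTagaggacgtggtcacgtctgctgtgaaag
Of these 12 exons, 3 hold such a motif: the Flnc exon and the Arfgef2 exon each have 1 TCTT, and the Arhgap39 exon has 1 TTCT. A short exon has less room for a motif, so this count does not describe the members as a set. Shares over the members are given below. The introns, where most known PTB sites lie, were not searched because no genome of the files' build was used here.

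The single knockdowns split the 406 exons unevenly. The Ptbp1 knockdown alone was at least 15 points below control for 94 members (23.2%), the Ptbp2 knockdown alone for 66 (16.3%), each of both for 31 (7.64%), and neither for 215 (53.0%). In all, 125 members (30.8%) passed that fall in the Ptbp1 knockdown, against 0.218% of all measured exons, and 97 (23.9%) in the Ptbp2 knockdown, against 0.288% of all. The 3 knockdowns share 1 control library, so a control value that is high by chance lowers all 3 differences, and these shares cannot be read as independent of the rule. Median inclusion over all members was 82.0% in control, 68.5% with Ptbp1 lowered, 70.8% with Ptbp2 lowered and 54.4% with both lowered. The lowest of the 4 values was that of the double knockdown in 346 members (85.2%), by definition in all 215 of the neither class but also in 75 of 94, 22 of 31 and 34 of 66 in the Ptbp1-only, both and Ptbp2-only classes.

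**Figure D1:**
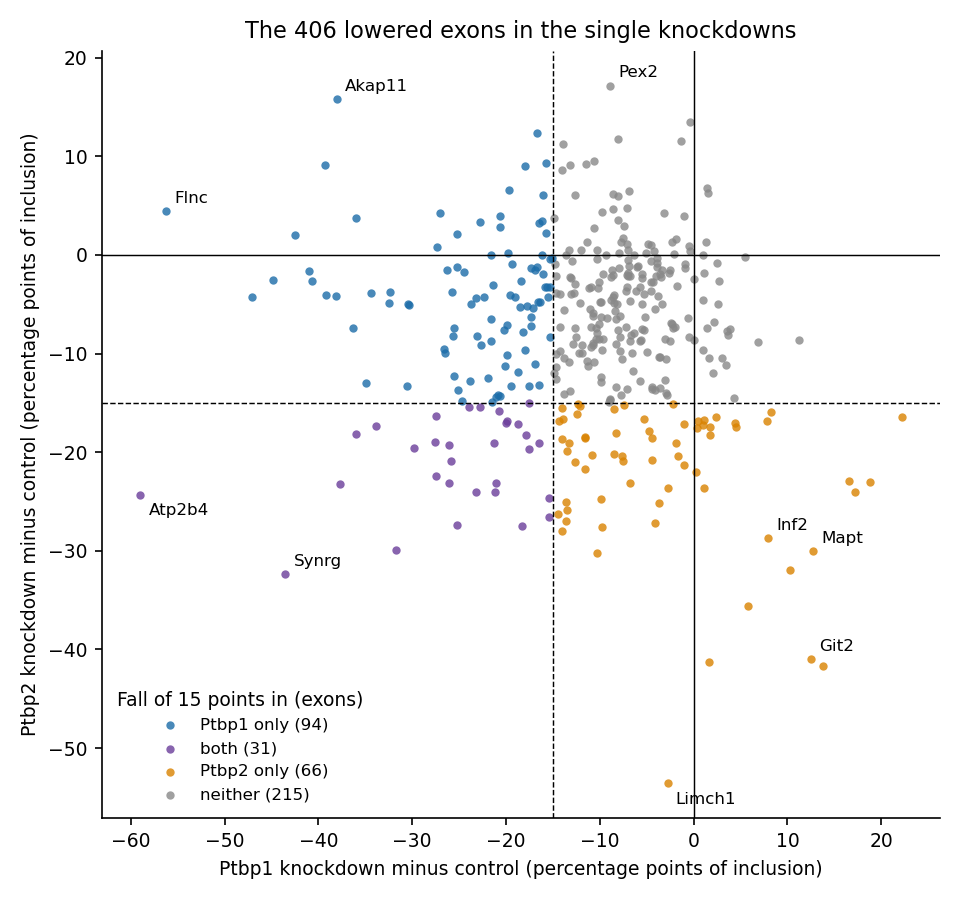
Each point is 1 of the 406 lowered exons, placed by its difference from control in the Ptbp1 knockdown (x axis) and in the Ptbp2 knockdown (y axis), in percentage points of inclusion. Dashed lines mark 15 points below control and split the exons into 94, 31, 66 and 215. Most points lie below 0 on both axes (292 of 406), and a group at the lower right is higher in the Ptbp1 knockdown and lower in the Ptbp2 knockdown.

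The exons of the Ptbp1-only class had a median inclusion of 77.5% in control, 53.4% with Ptbp1 lowered, 72.4% with Ptbp2 lowered and 44.6% with both lowered. Differences were large here, with 44 of 94 exons at least 30 points below control in the double knockdown. The rule for naming took, in each class, the 8 exons with the largest difference whose fall holds with either inclusion junction alone and whose intervals in control and double knockdown do not overlap. The 99-nucleotide coding exon of Flnc (chr6:29402799-29402897), the filamin that crosslinks actin in muscle and other cells, was included at 86.6% in control (78.4 to 92.0), 30.4% after the Ptbp1 knockdown (23 to 39.7), 91.0% after the Ptbp2 knockdown (81.8 to 95.8) and 17.5% after both (12.2 to 25.3). The control and Ptbp2 knockdown overlap in their intervals, and both stand far above the other two libraries. The 93-nucleotide exon of Arhgap39 (chr15:76560794-76560886), which encodes a GTPase-activating protein, was likewise low in the Ptbp1 and double knockdowns, with 80.1%, 33.0%, 75.8% and 24.2% in control, Ptbp1, Ptbp2 and double knockdown.

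In other members of this class the double knockdown went well beyond the Ptbp1 knockdown. The 174-nucleotide exon of Eml4 (chr17:83824598-83824771), a microtubule-binding protein, stood at 97.3% in control (95.5 to 98.4), 64.8% with Ptbp1 lowered (59.4 to 69.9), 92.4% with Ptbp2 lowered (89.2 to 94.8) and 33.3% with both lowered (29.3 to 37.6). The intervals of all 4 libraries are apart here, with control and Ptbp2 knockdown the closest pair. The 579-nucleotide exon of Ptprf (chr4:117898404-117898982), a receptor tyrosine phosphatase of axons and adhesion sites, went in the same order through 97.8%, 72.2%, 89.6% and 41.3%. The 54-nucleotide exon of Akap9, an anchor for kinases at the centrosome and Golgi (chr5:3954397-3954450), was at 97.5%, 78.8%, 85.7% and 48.1%, from 40.5 reads in control and as few as 21.0 with Ptbp2 lowered. Its interval with Ptbp1 lowered (62.2 to 89.3) overlaps those of control (87.4 to 99.6) and of the double knockdown (30.7 to 66.0). The reads of Akap9 therefore settle neither its class nor the step beyond the Ptbp1 knockdown. The 178-nucleotide exon of the antiviral adaptor Mavs (chr2:131066051-131066228), the only coding one of these 8 whose size is not a multiple of 3, was at 94.6%, 77.7%, 83.5% and 46.7%.

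A pair of named exons in this class need their reads beside them. The 102-nucleotide exon of Immt (chr6:71802760-71802861), which encodes the mitochondrial inner membrane protein mitofilin, was at 77.5%, 35.0%, 79.5% and 14.8%. Its inclusion junctions held 277 and 261 reads in control and 185 and 159 in the double knockdown, while the skipping junction went from 78 to 989 reads, so most of the difference came with more reads of the skipping junction. With the authors' SpliceTrap ratio its difference is -40.3 points instead of -62.7. The 81-nucleotide exon of the noncoding RNA Meg3 (chr12:110787501-110787581) was at 55.0%, 14.3%, 52.4% and 7.69%, but had only 20 reads in control (34.2 to 74.2), and Meg3 itself went from 3.29 CPM in control to 17.6 in the double knockdown.

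The 31 exons of the both class were lower in either single knockdown and lower still with both in most cases: medians were 75.3%, 50.6%, 52.1% and 39.5%. The 129-nucleotide exon of Scarb1 (chr5:125761475-125761603), the receptor that takes up cholesterol from high-density lipoprotein, had 1031 reads in control. It was at 81.8% in control (79.3 to 84.0), 50.1% with Ptbp1 lowered (46.9 to 53.2), 51.8% with Ptbp2 lowered (48.6 to 55.1) and 26.0% with both lowered (23.4 to 28.9). The single knockdowns overlap each other and lie between the control and the double knockdown. The 84-nucleotide exon of Golim4, a membrane protein of the Golgi (chr3:75706323-75706406), showed the same steps, from 76.7% to 53.5% and 52.6% and then 32.2%. The 138-nucleotide exon of Dtx2, a ubiquitin ligase linked to Notch signalling (chr5:136502340-136502477), was at 72.8%, 35.1%, 49.6% and 9.47%. The 84-nucleotide exon of Sh3pxd2a, a scaffold of podosomes (chr19:47357511-47357594), was at 53.8%, 38.4%, 27.2% and 9.68%, lower with the Ptbp2 knockdown than with the Ptbp1 knockdown. By the authors' SpliceTrap ratio its Ptbp1 knockdown stood at 43.8% against 58.4% in control, just under the 15 points of the class.

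The 234-nucleotide exon of Synrg, a partner of the clathrin adaptor AP-1 (chr11:83800316-83800549), was at 61.5%, 18.0%, 29.2% and 9.90%. The 208-nucleotide exon of Mical1, which oxidises actin (chr10:41198234-41198441), was at 76.4%, 51.2%, 49.0% and 23.1%, and the 106-nucleotide exon of the cell surface glycoprotein Mpzl1 (chr1:167531881-167531986) at 65.2%, 41.2%, 49.8% and 20.6%. Neither size is a multiple of 3. With the authors' SpliceTrap ratio the difference of the Mical1 exon is -41.6 points instead of -53.3. The 36-nucleotide exon of the calcium pump gene Atp2b4 (chr1:135633193-135633228) departs from the pattern: it was at 80.4%, 21.4%, 56.1% and 36.5%, higher in the double than in the Ptbp1 knockdown, with 25.5 reads in control and an interval in the double knockdown (22.9 to 54.7) that overlaps those of both single knockdowns. Across the class, the double knockdown lay further below control than the sum of both single differences in 6 of 31 exons. The class asks for 15 points in each single knockdown, and the median of that sum was -45.3 points. The double knockdown needs only 15 points, so a low count is partly built in by the rule and was not tested.

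**Figure D2:**
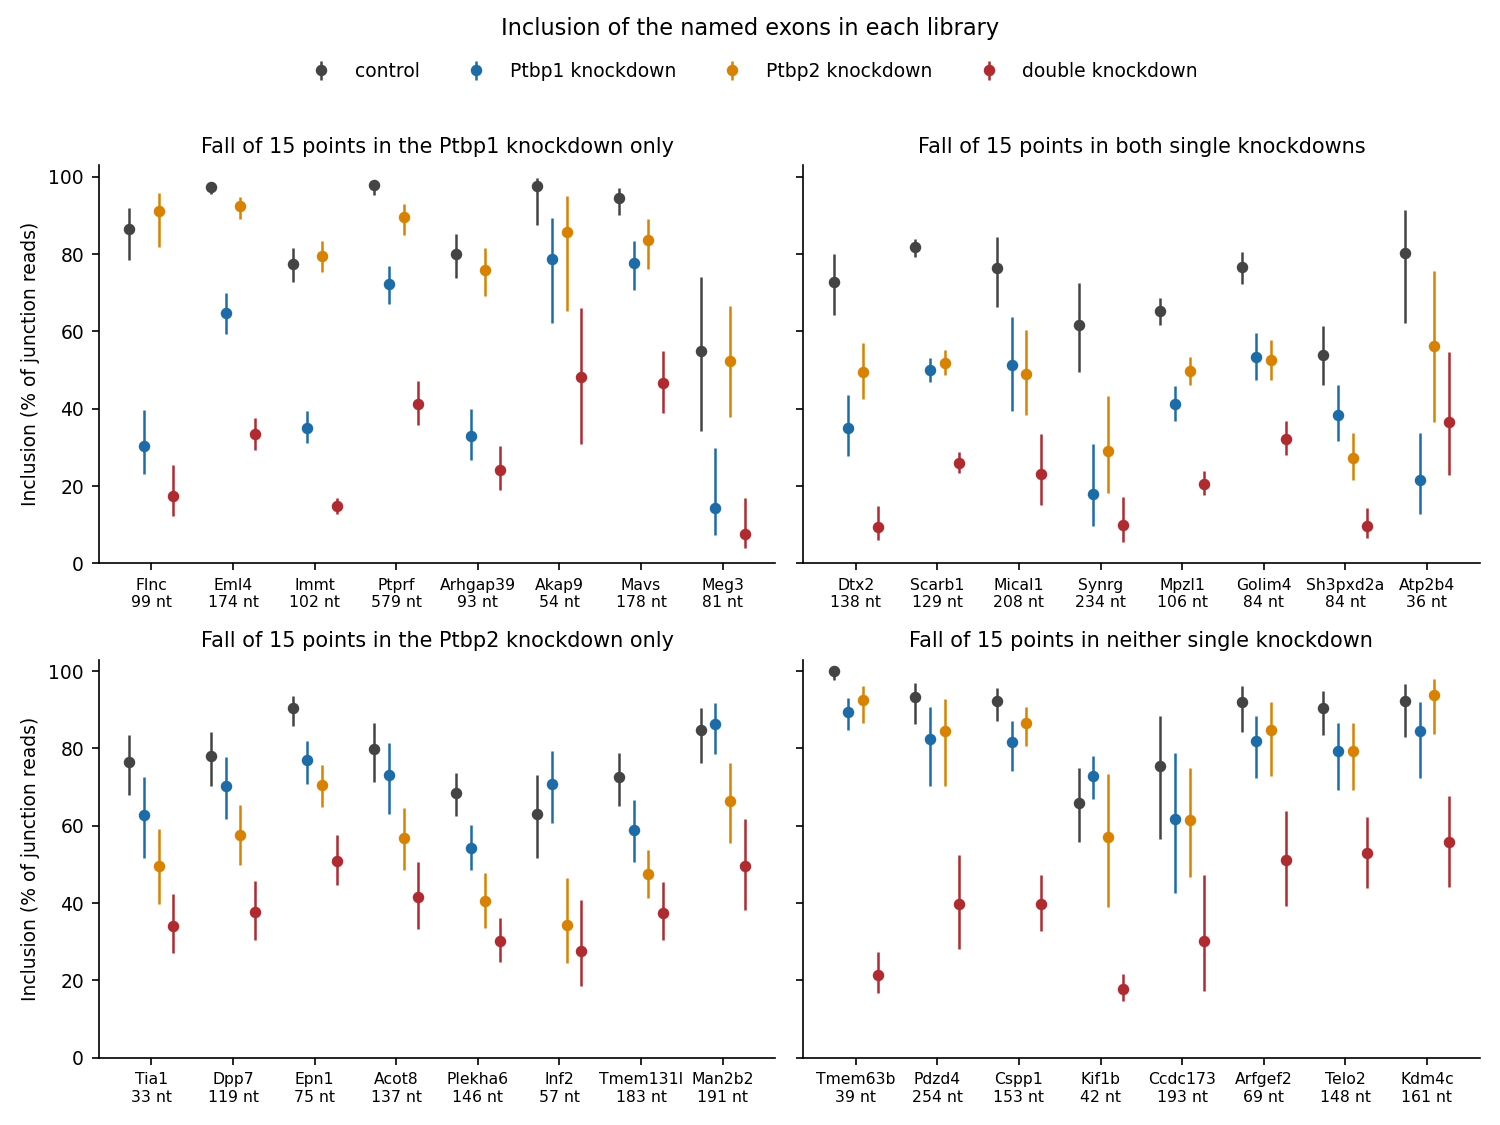
Inclusion in percent of junction reads (y axis) of the 32 named exons in each of the 4 libraries, 8 exons per class, with 95% Wilson intervals as bars. In the Ptbp1-only panel the Ptbp2 knockdown is the knockdown nearest to control, in the both panel the single knockdowns sit between control and double knockdown except for Atp2b4, and in the neither panel the double knockdown stands alone at the bottom, as for Tmem63b at 21.5%.

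The Ptbp2-only class held smaller differences. Of its 66 exons, 12 were at least 30 points and 36 less than 20 points below control in the double knockdown, and medians were 76.4% in control, 73.3% with Ptbp1 lowered, 53.7% with Ptbp2 lowered and 52.2% with both lowered. The 33-nucleotide exon of Tia1 (chr6:86369095-86369127), an RNA-binding protein that itself regulates splicing, stood at 76.5% in control (67.9 to 83.5), 62.8% with Ptbp1 lowered (51.7 to 72.7), 49.5% with Ptbp2 lowered (39.8 to 59.3) and 34.0% with both lowered (27 to 42.4). It was the only member in a fixed list of 49 splicing regulators, 1 of 360 measured exons (0.278%, against 0.408% of all). The same list held 5 raised exons (1.39%). The 75-nucleotide exon of the endocytic adaptor epsin, Epn1 (chr7:5044914-5044988), was at 90.4%, 77.0%, 70.5% and 51.0%. For both exons the Ptbp1 knockdown lay below control by nearly as much as the rule asks, so the label of the class does not mean that it was at the level of control.

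Of the 7 coding named exons of this class, 3 have a size that is a multiple of 3. That is near the share in the whole class (22 of 52 coding exons, 42.3%) and among all measured coding exons (39.1%). The 119-nucleotide exon of the lysosomal dipeptidase Dpp7 (chr2:25209128-25209246) was at 78.0%, 70.4%, 57.7% and 37.8%, and the 137-nucleotide exon of the peroxisomal thioesterase Acot8 (chr2:164628497-164628633) at 79.9%, 73.1%, 56.7% and 41.6%. The 146-nucleotide exon of Plekha6 (chr1:135191140-135191285) was at 68.4%, 54.4%, 40.4% and 30.2%, and the 191-nucleotide exon of the mannosidase Man2b2 (chr5:37209701-37209891) at 84.7%, 86.4%, 66.5% and 49.6%. The 183-nucleotide exon of Tmem131l (chr3:83713074-83713256), of which the size is a multiple of 3, was at 72.5%, 58.9%, 47.4% and 37.4%. The 57-nucleotide exon of the formin Inf2 (chr12:113850759-113850815) was at 63.0%, 70.9%, 34.3% and 27.7%, so the Ptbp1 knockdown was the highest of the 4 libraries.

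That last order, higher than control in the Ptbp1 knockdown and lower in the Ptbp2 knockdown, held for 24 of the 66 exons of the Ptbp2-only class. The following examples were chosen after their values were seen. The 90-nucleotide exon of Git2 (chr5:115187357-115187446), a GTPase-activating protein for Arf GTPases, was at 57.8% in control (49.6 to 65.9), 70.3% with Ptbp1 lowered (60.8 to 78.3), 16.8% with Ptbp2 lowered (11.9 to 23.9) and 23.5% with both lowered (17.9 to 30.2). The 93-nucleotide exon of the microtubule-binding protein tau, Mapt (chr11:104179471-104179563), was at 67.7%, 80.4%, 37.7% and 34.1%. In both exons the double knockdown was on the side of the Ptbp2 knockdown.

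A knockdown at least 15 points above control occurred in 6 members in all. In the Ptbp1 knockdown these were 4 exons of the Ptbp2-only class: 3 overlapping exons of Cldnd1 that share 1 end, the 66-nucleotide one at 37.9%, 54.5%, 15.0% and 20.8%, and an exon of Tnip1 at 51.6%, 73.8%, 35.2% and 36.5%. In the Ptbp2 knockdown they were the 84-nucleotide exon of Akap11, at 61.4%, 23.3%, 77.1% and 46.3%, and the 64-nucleotide untranslated exon of Pex2, at 63.8%, 54.9%, 80.9% and 48.7%. Over all measured exons the Ptbp1 knockdown was 15 points above control in 0.28% and the Ptbp2 knockdown in 0.0773%.

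The neither class is the largest, with 215 exons, and its differences are mostly near the threshold: 131 of 215 were less than 20 points below control in the double knockdown, and 18 were at least 30 points below. Medians were 86.7% in control, 79.6% with Ptbp1 lowered, 81.3% with Ptbp2 lowered and 64.9% with both lowered. In 147 of the 215 both single knockdowns lay below control, in 4 both lay above, and in 70 the sum of both single differences reached 15 points. In 99 exons the double knockdown was lower than that sum by 10 points or more. The class asks for a fall of 15 points in the double knockdown and less in each single one. Such an excess is therefore partly built in by the rule and was not tested. The size of the neither class depends on the threshold: when a single knockdown needs only 10 points it holds 128 exons, and with 5 points 41.

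The 39-nucleotide coding exon of Tmem63b (chr17:45815912-45815950), a stretch-activated cation channel, shows the largest difference of all members. It was at 100% in control (97.6 to 100), 89.5% with Ptbp1 lowered (84.8 to 92.9), 92.6% with Ptbp2 lowered (86.6 to 96.1) and 21.5% with both lowered (16.6 to 27.4). The skipping junction held 0 reads in control, 23 and 9 in the Ptbp1 and Ptbp2 knockdowns and 175 in the double knockdown. Both single differences together make -17.8 points, against -78.5 in the double knockdown. With the authors' SpliceTrap ratio the difference of the Tmem63b exon is -68.2 points, smaller than that of the Flnc exon at -71.5. The 153-nucleotide exon of the spindle protein Cspp1 (chr1:10094293-10094445) followed with 92.4%, 81.6%, 86.5% and 39.7%, and the 254-nucleotide exon of Pdzd4 (chrX:71045173-71045426) with 93.3%, 82.5%, 84.4% and 39.7%. In these exons the single knockdowns were within 10 points of each other, and the double knockdown was far below all 3 other libraries.

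The 69-nucleotide exon of Arfgef2, which activates Arf GTPases at the Golgi (chr2:166668185-166668253), was at 91.9%, 81.8%, 84.9% and 51.3%. The 148-nucleotide exon of Telo2 (chr17:25247652-25247799), needed for the stability of large kinases such as mTOR, was at 90.6%, 79.3%, 79.3% and 52.9%, and the 161-nucleotide exon of the histone demethylase Kdm4c (chr4:73908713-73908873) at 92.2%, 84.6%, 93.9% and 55.9%. The 193-nucleotide exon of Ccdc173 (chr2:69609989-69610181) was at 75.5%, 61.7%, 61.4% and 30.3%, from 24.5 reads in control. The 42-nucleotide exon of the kinesin motor Kif1b (chr4:148635269-148635310) was at 65.9%, 72.8%, 57.1% and 17.9%. Its inclusion junctions had 22 and 98 reads in control and 90 and 66 in the double knockdown, and its skipping junction 31 and 358, while Kif1b as a gene differed by 0.04 on the log2 scale. By the authors' SpliceTrap ratio the Ptbp2 knockdown stood at 41.2% against 62.9% in control, which would place the exon in the Ptbp2-only class.

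Depth sets how well these values are known, so the members with 500 or more reads in every library were looked at separately. They number 28 of the 20128 exons measured at that depth (0.139%). By class they are 7 Ptbp1 only, 3 both, 4 Ptbp2 only and 14 neither. The 123-nucleotide exon of Pacsin2 (chr15:83210114-83210236), a membrane-bending protein of endocytosis, was at 94.0% in control (92.8 to 94.9), 78.9% with Ptbp1 lowered (76.9 to 80.8), 93.6% with Ptbp2 lowered (92.5 to 94.6) and 50.3% with both lowered (48.3 to 52.3). The 81-nucleotide exon of Myo5a (chr9:75040191-75040271), the motor that carries vesicles on actin, was at 68.9%, 30.8%, 64.8% and 26.5%. In Myo5a the Ptbp1 and double knockdown intervals overlap (27.9 to 33.9 and 23.9 to 29.3), while in Pacsin2 they are far apart, although both exons are in the Ptbp1-only class.

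The deep members of the neither class include exons with a single knockdown some way below control. The 190-nucleotide exon of Hpf1 (chr8:63374258-63374447), a cofactor of the enzymes that add ADP-ribose to damaged chromatin, was at 86.8% in control (85.0 to 88.4), 75.8% with Ptbp1 lowered (72.9 to 78.6), 83.6% with Ptbp2 lowered (81.6 to 85.4) and 51.9% with both lowered (49.4 to 54.5). The 108-nucleotide exon of Gse1 (chr8:123098071-123098178) was at 99.6%, 92.6%, 97.5% and 69.9%. The 168-nucleotide exon of App, the amyloid precursor protein (chr16:85043821-85043988), was at 99.8%, 97.6%, 99.9% and 78.3%, but this value depends on the flanking exons counted. With both of its trios pooled it was at 72.0%, 35.5%, 63.8% and 23%, which would place it in the Ptbp1-only class, and the authors' SpliceTrap ratio is 99.7%, 80.5%, 99.9% and 48.6%. The 63-nucleotide exon of the kinase Csnk1d (chr11:120826262-120826324), in the both class, was at 49.5%, 29.6%, 32.7% and 14.7%. The most deeply read member, the 77-nucleotide untranslated exon of Morf4l2 (chrX:133270085-133270161) with 5168.5 reads in control, was at 94.6%, 74.8%, 94.8% and 73.8%, so that its intervals overlap between control and Ptbp2 knockdown and between Ptbp1 and double knockdown. These deep examples were chosen after their values were seen.

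The sizes and reading frames of the members were not used to choose them, apart from the minimum size. Median size was 112.5 nucleotides, against 95 for the raised exons and 123 for all measured exons. Of 310 coding members, 162 (52.3%) have a size that is a multiple of 3. The share was 84.2% of 234 coding raised exons, 59.3% of coding exons that were between 10 and 90% included in control, and 39.1% of all coding exons measured. Within the members it was 73.9% in the Ptbp1-only class (51 of 69), 52.2% in the both class (12 of 23), 42.3% in the Ptbp2-only class (22 of 52) and 46.4% in the neither class (77 of 166). Skipping therefore shifts the reading frame in 148 coding members, 89 of them in the neither class.

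The frame share went along with 3 other features of the exons. It was 65.0% in coding members whose skipping is present in annotated transcripts and 26.9% in those whose skipping is not. It was 68.0% with a difference of 30 points or more and 47.2% below that. It was 58.1% where the fall held by either junction with intervals apart, and 42.0% in the others. Skipping was annotated for 262 of 392 members matched to transcripts (66.8%), with 83.1%, 67.7%, 67.2% and 59.6% in the Ptbp1-only, both, Ptbp2-only and neither classes. The same share was 88.1% of raised exons, 74.4% of exons between 10 and 90% in control and 7.07% of all measured exons. Among all measured exons with annotated skipping, 51.3% of coding ones keep the frame.

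**Figure D3:**
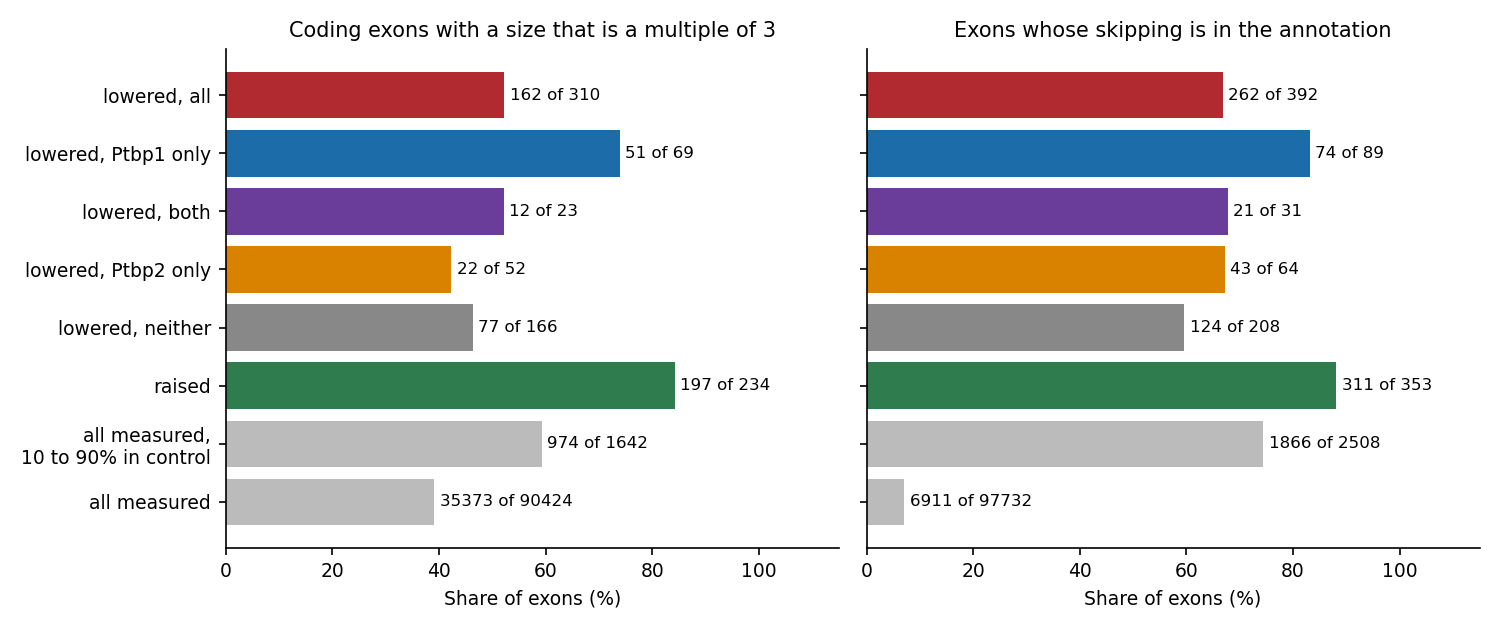
Bars give the share of coding exons whose size is a multiple of 3 (left, in percent) and the share of exons whose skipping occurs in an annotated transcript (right, in percent), with the counts beside each bar. The Ptbp1-only class, at 73.9% and 83.1%, comes closest of the 4 classes to the raised exons, at 84.2% and 88.1%.

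The sequence of the exons differed in composition from that of the raised exons. Members had a median of 47.1% C and T on the transcript strand, the same as all measured exons to 3 digits, whereas the raised exons had 53.0%. Among exons of 60 to 150 nucleotides, TCTT occurred on the transcript strand in 27.9% of members, 48.2% of raised exons and 34.7% of all measured exons. TTCT, which can overlap TCTT, occurred in 33.6%, 52.9% and 38.4%. TGCATG, the motif bound by Rbfox proteins, was in 4.37% of members, 4.71% of raised exons and 2.69% of all. Members' upstream and downstream introns had medians of 1466.5 and 1584 nucleotides, against 1293 and 1196 for all measured exons. These are shares of letters in the exon alone, with no test.

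The members fell in 354 named genes, and 1 member had no symbol. In 48 genes there were 2 or more, and 49 members overlap another one, so the 406 exons make 381 separate places. Tcf3, Synj2 and Cldnd1 had 3 each. The members were looked up in gene lists built from symbol prefixes, which place some genes loosely. The list of chromatin and transcription genes held 39 members of 6080 measured exons (0.641%, against 0.408% of all), of which 23 were in the neither class. Examples are the 73-nucleotide exon of Dpf2, part of a chromatin remodelling complex, at 94.6%, 69.4%, 96.7% and 48.9%, and the 175-nucleotide exon of Ep400, a chromatin remodelling ATPase, at 81.7%, 54.2%, 59.3% and 41.6%. The fall of the Dpf2 exon does not reach 15 points with each inclusion junction alone. Of its inclusion junctions, 1 held 0 reads in control and 1 read in the double knockdown. Its values rest on the other, with 697 and 150 reads. By coordinates, the 1471-nucleotide intron after it contains a 42-nucleotide Dpf2 exon that was raised, from 10.1% to 77.7%. The skipping junction of that raised exon held 722 and 158 reads. The fall of the 73-nucleotide exon therefore cannot be told apart from that rise.

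Genes of the cytoskeleton and motors held 18 members of 3338 exons (0.539%), small GTPase regulators 13 of 2811 (0.462%), membrane traffic and endocytosis 20 of 4791 (0.417%), kinases and phosphatases 15 of 4119 (0.364%) and adhesion, receptors, channels and transporters 22 of 5409 (0.407%). RNA-binding and RNA processing genes held 6 of 4308 (0.139%), among them Rbm4, whose 682-nucleotide exon was at 61.1%, 54.2%, 67.5% and 32.6%. Genes listed for exons that PTB proteins regulate held 11 of 1098 (1.00%). The same genes held 30 raised exons (2.73%), so the other direction was the more frequent one in them. These counts cover all measured exons of the listed genes, not only the regulated ones. The list was drawn up with earlier results of these data known, so its shares are not independent of them. Besides Ptprf, Kif1b and Myo5a, the genes on this list with a lowered exon are App, Ank3, Cacna1c, Dst, Mef2d and Ryr1.

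Lowered and raised exons occurred together in 30 genes. In Dst, a large linker of cytoskeletal filaments, a 327-nucleotide exon was at 77.8%, 58.0%, 70.8% and 43.1% and a 111-nucleotide exon at 88.7%, 62.9%, 67.8% and 51.7%, while a 72-nucleotide exon between them was raised, at 13.2%, 61.8%, 7.13% and 48.1%. In Rims2, a scaffold of synaptic vesicle release, 2 exons were lowered, one from 100% to 74.2% and one from 39.2% to 23.1%, and 2 were raised, one of them from 3.40% to 59.1%. In Ptprf the 579-nucleotide exon was lowered and a 33-nucleotide exon was raised, from 8.02% in control to 39.5% in the double knockdown. In Myo9a, an unconventional myosin motor, a 213-nucleotide exon went from 62.4% to 23% and a 54-nucleotide exon from 5.59% to 65.8%. Only 3 members have a raised exon as a direct flank of their trio, in Kctd17, Tbp and Eps15l1. This count leaves out a raised exon that lies within an intron of the trio, as in Dpf2.

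The levels of the host genes entered the choice of exons only through the 20 reads asked for in each library. That rule leaves out weakly expressed genes, while the genes compared needed 1 CPM in some library only. A low count of 2-fold differences among the hosts is therefore partly built in. All 354 genes passed the filter of 1 CPM, and their median difference between double knockdown and control was -0.07 on the scale of log2(CPM + 0.1), against -0.03 over 11234 genes. Of the 354, 2 were at least 2-fold lower (all genes 1.43%) and 4 at least 2-fold higher (1.6%). Lower were Lipo3, from 49.3 to 22.2 CPM, and the microtubule-associated protein gene Map4, from 208 to 99.7 CPM, whose 114-nucleotide exon is a member. Higher were Meg3, the F-box gene Fbxo48 (7.04 to 19.1 CPM), Rapgefl1 (6.89 to 15.2 CPM) and Tanc2 (112 to 227 CPM). In bulk RNA, fewer cells that express a gene and less RNA per cell cannot be told apart. With scaling by total reads the median of all genes moves from -0.03 to 0.13 and that of the hosts from -0.07 to 0.09.

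Hosts of frame-shifting exons were not far from the others in level by reads on all listed exons. The 147 hosts of coding members that keep the frame had a median of -0.06 and 1 gene 2-fold lower, and the 137 hosts of coding members that shift it had -0.08 and 1 gene 2-fold lower. The gap was wider with only the reads on the flanking exons of the trios. The medians were then 0.02 over 129 frame-keeping hosts and -0.14 over 98 frame-shifting hosts, with 49.6% and 62.2% below control. It was absent by FPKM, with medians of 0.08 over 100 frame-keeping and 0.09 over 70 frame-shifting hosts, and 38% and 40% below control. With scaling by total reads the medians were 0.10 and 0.07, so the gap depends on the measure. By reads on all listed exons, the hosts together had 0 genes 2-fold lower and 2 higher in the Ptbp1 knockdown (all genes 0.409% and 3.41%). In the Ptbp2 knockdown they had 4 lower and 2 higher (1.98% and 0.73%). Among the 32 named exons, Meg3 is the only host beyond 2-fold in the double knockdown. Of the 49 listed splicing regulators, 39 passed the filter, with 3 at least 2-fold lower (Ptbp1, Ptbp2 and Mbnl1) and 0 higher in the double knockdown, and their part in the exon differences was not tested. Mbnl1, another regulator of exon inclusion, went from 136 CPM in control to 123, 62.8 and 66.8 CPM in the Ptbp1, Ptbp2 and double knockdowns.

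**Figure D4:**
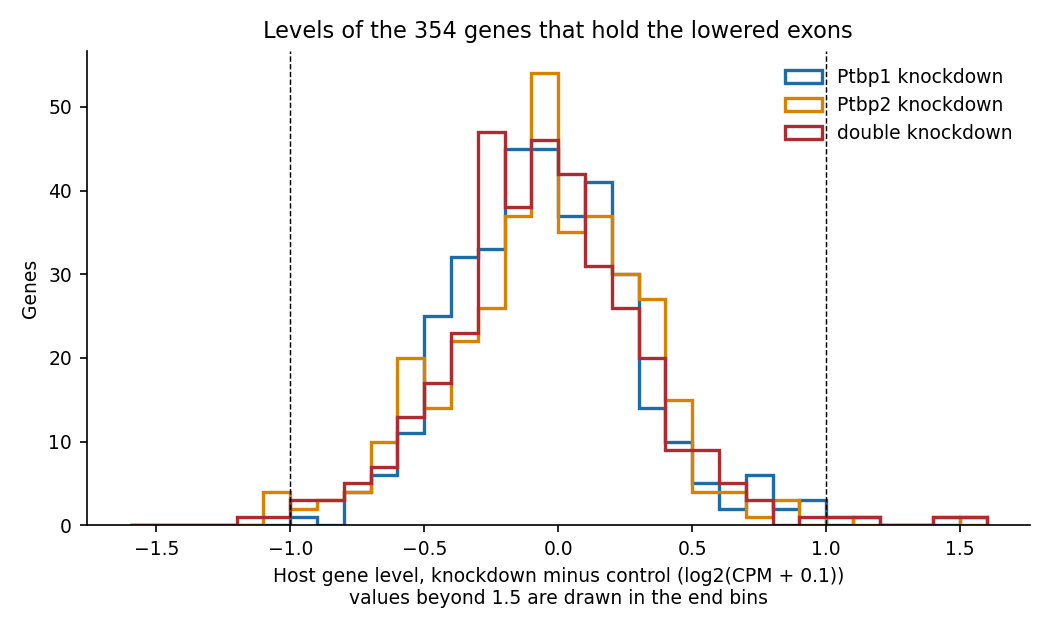
Number of host genes (y axis) by difference from control on the log2(CPM + 0.1) scale (x axis, bins of 0.1) for each knockdown, over the 354 genes that hold lowered exons. The 3 distributions lie around 0 and few genes pass the dashed 2-fold lines, 2 below and 4 above in the double knockdown.

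Not all members are equally firm. Among the 406, 337 had fewer inclusion reads and 399 had more skipping reads in the double knockdown than in control, and 330 had both. The fall reached 15 points by either inclusion junction in 275, the intervals of control and double knockdown were apart in 295, and 234 met both (66, 23, 32 and 113 by class). Total reads of the trio were more than 2-fold apart between control and double knockdown in 29. The exons nearest the threshold on the inside were those of Usp40 (94.5% to 79.5%), Pex2 (63.8% to 48.7%) and Mppe1 (97.5% to 82.5%), and on the outside those of Tjap1 (60% to 45%), 2700081O15Rik (97.4% to 82.4%) and Afg1l (95.5% to 80.6%).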

How the data were processed

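The 4 libraries of poly(A) RNA, strand-specific by dUTP and read as 100-base pairs per the labels' protocols, make 1 per group. Per the submitters' processing notes, the reads were processed with CASAVA, TopHat and Cufflinks on mm9; versions are not given in the sources used here. Per the file headers, the authors' SpliceTrap tables hold counts of reads across 3 junctions for each of 228333 events (218362 cassette trios), an inclusion ratio given as a fraction, and exon coverage, which is a signal of reads times 100 over exon size. The deposited gene FPKM are on an unusual scale and were rescaled by their own sum weighted by transcript length, then used as an alternative only. The score in the deposited transcript files was not used beyond the exon coordinates beside it.

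Inclusion, members and classes were computed as the report states, from 178785 exons over 27 nucleotides, of which 99602 had 20 reads in each library. Median reads per member were 111.5 in control and 126 in the double knockdown. Intervals are 95% Wilson intervals from reads rounded to whole numbers and cover counting error only. With 1 library per group there was no test, and the design's reading of intron motifs was replaced by exon sequence because no genome was used. Gene levels are reads recovered from coverage over distinct exons, scaled by median of ratios, as log2(CPM + 0.1), for genes with 1 CPM in some library, called at 2-fold. Trios were named by matching chromosome, strand, intron and exon sizes to GENCODE vM21, which named 95.0% of cassette trios. Of the members, 390 were named this way. Named exons are the 8 with the largest fall in each class among those with a symbol that is not a predicted gene, a fall of 15 points by either inclusion junction, and intervals apart. Up to 3 examples per gene list, and 3 exons on each side of the threshold, were added. The members and lists were chosen with earlier results of these data known. The calling of members was tested on simulated data with counting error only, in which both inclusion junctions had the same count. Unequal junctions and spread between cultures were not simulated, so that test says nothing about them. The result of a further marker list is not reported here. Alternatives for reads, points, junctions, ratio, row choice, size and gene scaling are given in the closing section. Python 3.11.15, pandas 2.3.3, numpy 2.4.6 and scipy 1.17.1 were used.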

Additional observations from a re-analysis of the deposited data

How the results depend on the processing

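No paired analysis was possible because each group has 1 library. Of the 406 lowered exons, 217 remained with a fall of 20 points and 808 were called with 10 points, and 234 had both a fall by either junction and intervals apart, an alternative added after seeing the data. Exons in the Ptbp2-only class numbered 41 with 50 reads, 30 with 20 points, 101 with 10 points, 43 with intervals apart, 40 by either junction and 32 by either junction with intervals apart. Exons in the neither class numbered 143 with 50 reads, 84 with 20 points, 544 with 10 points, 135 by either junction and 113 by either junction with intervals apart. The both class held 51 with 10 reads and 53 with the smaller of the inclusion junctions. When a single knockdown needed 10 points, both held 80 and neither 128, and with 5 points 164 and 41. The Ptbp1-only class stayed between 66 and 131 in every alternative run. With the authors' SpliceTrap ratio there were 472 lowered exons, which include 325 of the 406 (80.0%). Of the host genes, 0 were 2-fold lower when scaled by total reads, and 1 was 2-fold higher by FPKM. No named exon changed sign, and every one that had a value stayed at least 15 points below control. The rule for naming already asked for such a fall by either junction, so this outcome was largely fixed in advance. With the smaller of the inclusion junctions, 27 of the 32 named exons had a value. The search of intron windows of 100 and 200 bases was not run, since no genome of the files' build was used here. Members with few reads have wide intervals, and without replicates no fall can be set against the spread between cultures.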
